A study of Bos taurus with 24 samples.

Results

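The genes described here are 3 acute phase protein genes and 1 complement gene of the cow: HP (haptoglobin, ENSBTAG00000006354), SAA3 (serum amyloid A3, ENSBTAG00000022396), M-SAA3.2 (mammary serum amyloid A3.2, ENSBTAG00000010433) and C3 (complement component 3, ENSBTAG00000017280). They were chosen by identifier and are 4 of the 24616 genes counted in every library. RNA sequencing was done on liver and lactating mammary gland of 12 dairy cows, 6 of which ate alfalfa hay and 6 corn stover, the crop residue of maize, as forage for 12 weeks until slaughter. Each cow gave 1 library per tissue, so there were 6 libraries per tissue and diet and 24 in all. Parity was 3 except for 1 cow per diet of parity 2. Days in milk were 231 to 246 on alfalfa hay and 228 to 254 on corn stover. The sources used here do not give breed, udder health or somatic cell counts, and samples from before the diets were not analysed here. Both tissues were ground whole, so a level is an average over all their cells, and fewer cells of a type cannot be told apart from less RNA per cell.

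Acute phase proteins are plasma proteins whose synthesis in hepatocytes is switched on by cytokines such as IL-6, IL-1 and TNF during infection or injury. Haptoglobin binds free haemoglobin, and in cattle it is a major acute phase protein that is low in the blood of healthy animals. Serum amyloid A proteins are small apolipoproteins carried on high-density lipoprotein. Their A3 forms are made in many tissues outside the liver, and in cattle an A3 form is secreted by the mammary epithelium into milk and colostrum. C3 is the central protein of the complement cascade, where all activation routes meet. It is made in the liver at a high rate and also by epithelial cells and macrophages.

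SAA3 and M-SAA3.2 are close relatives. In the RefSeq table of the ARS-UCD2.0 assembly they lie on the same chromosome with SAA2 and SAA4 between them, and M-SAA3.2 carries SAA3 as a synonym. Reads from the stretches the copies share could be split between them or lost in counting, so the division of reads within this pair is uncertain.

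Liver libraries held 23595586 to 32563876 counts and mammary libraries 22579051 to 37954234. Levels are given as normalised CPM, reads relative to library size after TMM scaling within a tissue. Levels of liver and mammary gland are therefore not on a common scale, while the fitted tissue differences used TMM scaling over all 24 libraries. Replicate 1 of each diet stood apart in liver, with TMM factors of 0.700 on alfalfa hay and 0.778 on corn stover, against 0.982 to 1.17 in the other livers. Of the mammary libraries, alfalfa hay 4 had the lowest factor, 0.717, with the highest total, and corn stover 1 had the highest factor, 1.38. Each tissue held few reads typical of the other. Alfalfa hay livers 1 to 5 held 11 genes typical of mammary gland (mammary-type) at 147 to 296 ppm of their mammary level. The other 7 livers, alfalfa hay 6 (5.35 ppm) among them, held these genes at 1.45 to 38.9 ppm. Mammary libraries held 59 genes typical of liver (liver-type) at 72.3 to 399.8 ppm of their liver level for alfalfa hay cows and 203 to 2005 ppm for corn stover cows.

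The first comparison asked where the 4 genes were expressed. HP and C3 were mainly liver transcripts, SAA3 was moderately higher in liver, and M-SAA3.2 was the only one of the 4 that was higher in mammary gland. HP took 0.0802% to 2.74% of all reads in a liver library, and C3 took 1.39% to 2.05%. In mammary gland C3 still took 0.0184% to 0.119% of reads, while HP stood at 5 to 224 reads per library. All 4 tissue differences passed the threshold, a Benjamini-Hochberg adjusted p below 0.05, as did 68.2% of the 13760 genes tested (33.5% higher and 34.7% lower in mammary gland). At an unadjusted p below 0.05 the share of all genes was 70.7%.

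For HP the level over all 12 livers was 1032 at the lowest, 9171 at the median and 26669 CPM at the highest. In mammary gland the same figures were 0.180, 3.46 and 9.34 CPM. The fitted log2 difference, mammary gland minus liver, was -10.47 ± 0.69 (SE; edgeR quasi-likelihood test, adjusted p = 3.62e-13). For C3 the lowest, median and highest levels were 12896, 16030 and 20001 CPM in liver and 214, 586 and 974 CPM in mammary gland. Its log2 difference was -3.92 ± 0.25 (SE; edgeR adjusted p = 1.46e-13).

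SAA3 overlapped between the tissues. It ran from 1.32 over a median of 31.3 to 179.5 CPM in liver, and from 0.775 over 3.05 to 33.7 CPM in mammary gland. The fitted log2 difference was -2.19 ± 0.65 (SE; edgeR adjusted p = 0.00419). Without corn stover cow 6, whose liver was the second highest of the 12, it was -1.47 (edgeR adjusted p = 0.0319). With a term for each cow it was -1.71 (edgeR adjusted p = 0.0257). M-SAA3.2 was almost unread in liver, with 1 to 56 reads per library (0.0348 to 1.97 CPM). It reached 4 to 1026 reads in mammary gland (0.189 to 42.8 CPM, median 3.31 CPM). Its log2 difference was 4.44 ± 0.71 (SE; edgeR adjusted p = 4.06e-06). Scaling by library totals alone moved the median of all genes from -0.02 to -1.0. On that scale the tissue differences were -11.63 for HP, -3.26 for SAA3, 3.38 for M-SAA3.2 and -4.85 for C3, and all 4 kept their sign.

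**Figure D1:**
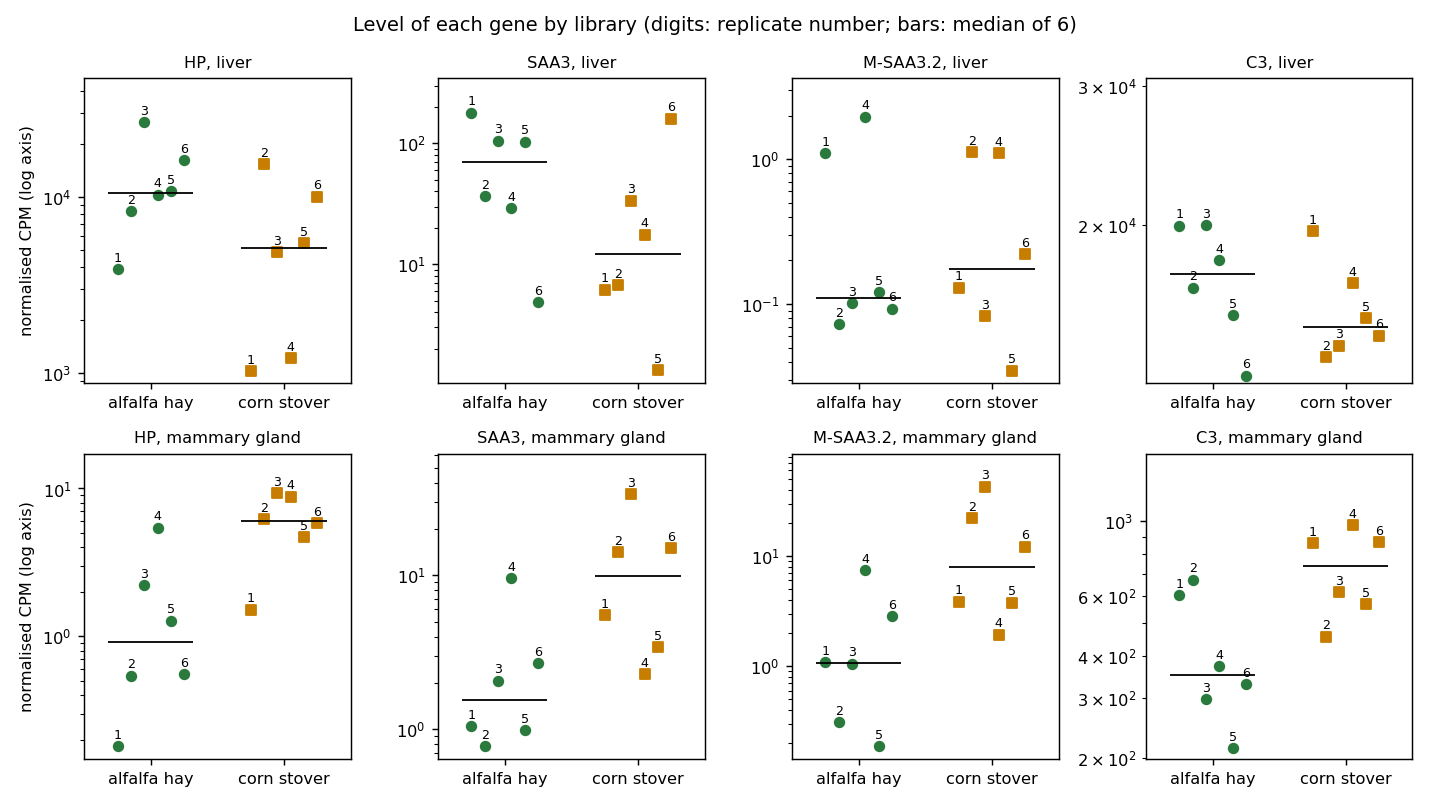
Normalised CPM (log axes) of HP, SAA3, M-SAA3.2 and C3 in each liver library (top) and mammary gland library (bottom), by diet. Digits are replicate numbers and bars are medians of 6 libraries. C3 in liver stays between 12896 and 20001 CPM, while SAA3 in liver runs from 1.32 to 179.5 CPM.

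The pair of A3 forms was then compared by the share of their joint reads that fell on M-SAA3.2, a measure chosen after the values were seen. In liver this share was low, at 0.0962% to 14.3% with a median of 1.24%. In mammary gland it was 16.0% to 60.9% with a median of 45.3%. The share was higher in mammary gland than in the liver of the same cow in 12 of 12 cows (exact permutation test within cows, two-sided, p = 0.000488, the smallest this design allows). The lowest mammary share, in alfalfa hay cow 5, rested on 25 reads and had a 95% Wilson interval of 6.40% to 34.7%. The highest liver share, in corn stover cow 2, was 33 of 231 reads (10.4% to 19.4%). These intervals cover counting error only. Mammary gland RNA at the measured level of mammary-type reads would make up at most 0.326% of the M-SAA3.2 level of any liver. Within mammary gland the share was 37.4% ± 13.9 in alfalfa hay cows and 50.2% ± 7.52 in corn stover cows (SD, n = 6 each; exact permutation test, two-sided, p = 0.0714), a difference within the spread between cows.

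**Figure D2:**
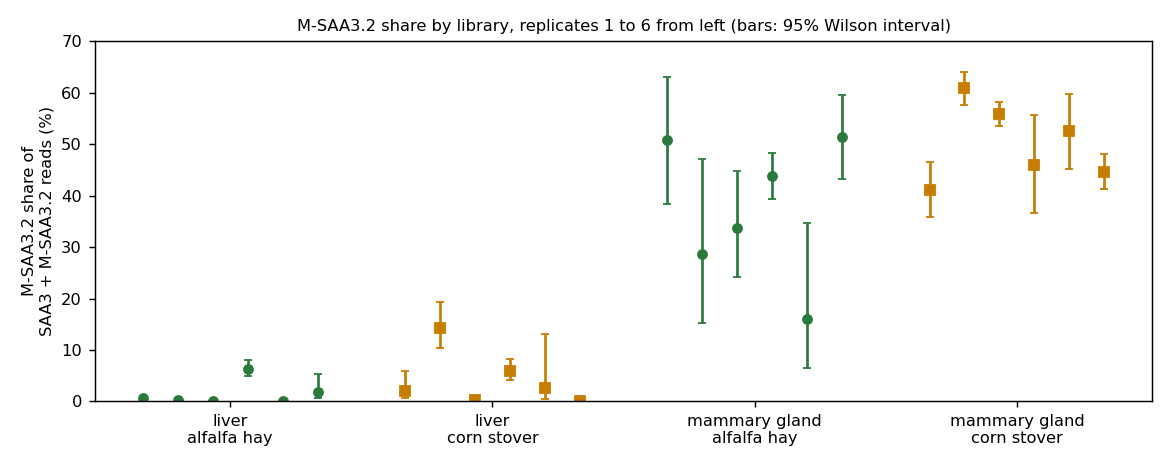
Share of the joint reads of SAA3 and M-SAA3.2 that fell on M-SAA3.2, in percent, for each library, with 95% Wilson intervals. The liver libraries lie at 14.3% or below and the mammary gland libraries at 16.0% or above.

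The liver comparison asked whether the hepatic acute phase genes differed between the diets. None of the 3 members that could be tested passed the threshold (edgeR, adjusted over 12929 genes). The share of all genes called was 0%, DESeq2 also called 0 of the 3, and 0 of the 3 had an unadjusted p below 0.05, against 2.74% of all genes. The fitted values of HP, SAA3 and C3 were all lower on corn stover. Their median log2 difference was -1.0, where the median of all genes was 0.0036.

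HP in liver was at 3914, 10554 and 26669 CPM (lowest, median, highest) on alfalfa hay and at 1032, 5165 and 15432 CPM on corn stover. The highest livers were alfalfa hay cow 3, alfalfa hay cow 6 and corn stover cow 2, and the lowest were corn stover cows 1 and 4, at 1032 and 1220 CPM. The groups overlapped, with 2 alfalfa hay livers above and 2 corn stover livers below all livers of the other diet. The log2 difference, corn stover minus alfalfa hay, was -1.0 ± 0.60 (SE; edgeR unadjusted p = 0.115). Without alfalfa hay cow 3 it was -0.64.

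SAA3 in liver was the most variable of the tested members there. It was at 4.86, 69.9 and 179.5 CPM on alfalfa hay and at 1.32, 12.2 and 160 CPM on corn stover. Alfalfa hay cow 1 and corn stover cow 6 were highest, at 179.5 and 160.3 CPM. Corn stover cow 5 was lowest, at 38 reads. On the log2 scale the diet difference was -1.02 ± 0.93 (SE; edgeR unadjusted p = 0.292). It was -2.54 without corn stover cow 6, -0.56 without alfalfa hay cow 1 and -0.35 without cow 1 of both diets, so single livers set its size.

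C3 in liver hardly varied between cows. It was at 12896, 17366 and 20001 CPM on alfalfa hay and at 13616, 14879 and 19661 CPM on corn stover. Its log2 diet difference was -0.13 ± 0.20 (SE; edgeR unadjusted p = 0.530). The coefficient of variation over the 12 livers was 15.5% for C3, 76.8% for HP and 111% for SAA3, where the median over all genes tested was 31.2%. A larger coefficient than that of SAA3 was found for 1.01% of genes, and a larger one than that of C3 for 94.1%.

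M-SAA3.2 did not pass the filter on low counts in liver. The 56 reads of alfalfa hay cow 4, the 33 reads each of corn stover cows 2 and 4 and the 19 reads of alfalfa hay cow 1 stood above 1 to 7 reads in the other 8 livers. With no filter its log2 difference was -0.33 ± 0.93 (SE; edgeR unadjusted p = 0.728).

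The headers of the liver count columns differed in form, with the letter of the tissue in alfalfa hay replicates 1 to 5 and without it in the other 7 livers. What this form stands for is not given in the sources used here. The 5 livers with the letter were also the 5 with the most mammary-type reads (147 to 296 ppm, against 1.45 to 38.9 ppm in the other 7), and all 5 were from alfalfa hay cows. Mammary gland RNA at these levels would make up at most 0.00428% of SAA3, 0.00143% of C3 and 2.24e-05% of HP in any liver. With it as a term, diet rests on the single alfalfa hay liver 6, and the log2 difference was -1.35 for HP, 2.95 for SAA3 and 0.28 for C3. None of the 3 passed the threshold in that fit (edgeR adjusted p = 0.9996 for each). The direction was turned for SAA3 and C3, and alfalfa hay cow 6 had the lowest SAA3 and C3 of the livers of its diet. The kind of header and the diet cannot be told apart in the other 11 livers.

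The mammary comparison asked the same question in the milk-producing tissue. All 4 genes had higher fitted values on corn stover, and none passed the threshold after adjustment over the 12027 genes tested (edgeR quasi-likelihood test; 0% of genes called). DESeq2, which called 42 genes in all, called 0 of the 4. At an unadjusted p below 0.05 were 4 of the 4 members, against 6.52% of all genes. SAA3 and M-SAA3.2 share sequence, and the 4 genes share their libraries, so these are not 4 independent results. The median log2 difference of the 4 was 1.96, where that of all genes was 0.0014.

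HP in mammary gland was at 0.180, 0.914 and 5.44 CPM on alfalfa hay and at 1.52, 6.01 and 9.34 CPM on corn stover. Corn stover cows 3 and 4 were highest, and 4 corn stover cows lay above the whole alfalfa hay range. These levels are of 5 to 148 and 51 to 224 reads. The log2 difference was 1.82 ± 0.61 (SE; edgeR unadjusted p = 0.00881, adjusted p = 0.573).

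SAA3 in mammary gland was at 0.775, 1.56 and 9.59 CPM on alfalfa hay and at 2.28, 9.84 and 33.7 CPM on corn stover. Corn stover cow 3 was far above the others, followed by corn stover cows 6 and 2 at 15.04 and 14.1 CPM. Alfalfa hay cow 4 was the only cow of its diet within the upper 6, at 9.59 CPM. The fitted log2 difference was 2.10 ± 0.68 (SE; edgeR unadjusted p = 0.00714, adjusted p = 0.521).

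M-SAA3.2 in mammary gland was at 0.189, 1.07 and 7.46 CPM on alfalfa hay and at 1.94, 8.01 and 42.8 CPM on corn stover. The same 3 corn stover cows were highest, in the order 3, 2 and 6. Corn stover cow 4, which was second for HP, was number 8 of 12 for both A3 forms. On the log2 scale the diet difference was 2.73 ± 0.83 (SE; edgeR unadjusted p = 0.00442, adjusted p = 0.458). With the reads of both A3 forms summed to 1 gene it was 2.41 ± 0.74 (SE; edgeR adjusted p = 0.474). Without alfalfa hay cow 4 the log2 differences of HP, SAA3 and M-SAA3.2 were 2.67, 3.02 and 3.70 (edgeR adjusted p = 0.166, 0.166 and 0.191). Without corn stover cow 3, those of SAA3 and M-SAA3.2 were 1.49 and 2.01.

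C3 in mammary gland was at 214, 352 and 672 CPM on alfalfa hay and at 456, 737 and 974 CPM on corn stover. Corn stover cows 4, 6 and 1 lay above the whole alfalfa hay range, and 4 alfalfa hay cows lay below the whole corn stover range. These values rest on 4536 to 28893 reads, so counting error is small beside the spread between cows. Its log2 diet difference was 0.80 ± 0.28 (SE; edgeR unadjusted p = 0.0118, adjusted p = 0.604).

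**Figure D3:**
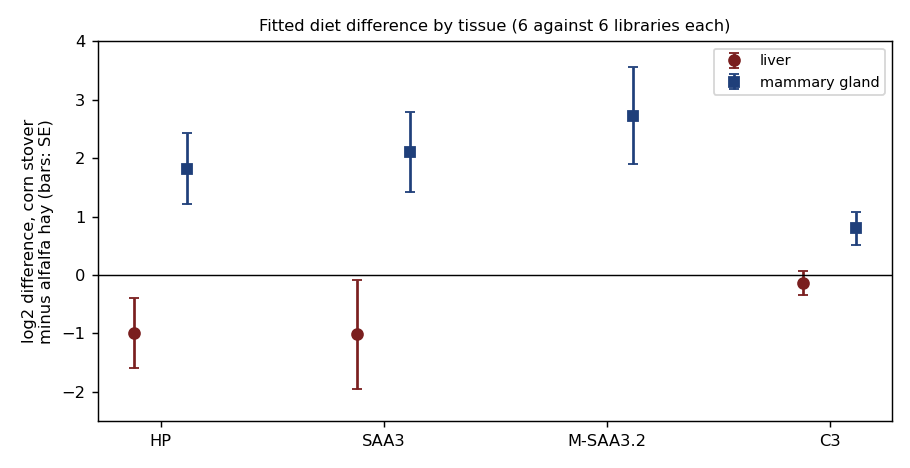
Fitted log2 difference, corn stover minus alfalfa hay, of each gene in liver (circles) and mammary gland (squares), with standard errors, from 6 against 6 libraries. The 4 mammary values run from 0.80 to 2.73 and the 3 liver values from -1.02 to -0.13; M-SAA3.2 was not tested in liver, and none passed the threshold.

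Liver-type reads moved with HP in mammary gland. Expressed like the 59 liver-type genes, mammary HP stood at 21.3 to 410 ppm of its median liver level in alfalfa hay cows and 220 to 1011 ppm in corn stover cows. This was 0.294 to 1.5 times the level of the liver-type genes of the same library. HP lay between the 10th and the 90th percentile of those 59 genes in 11 of the 12 mammary libraries. HP itself met the limits by which the liver-type genes were chosen, with a ratio of 3004 between its median levels, and was left out of that list. All 59 liver-type genes had reads in every corn stover mammary library, and up to 11 of them were at 0 in an alfalfa hay library. Over the 12 mammary libraries, log2 HP and log2 liver-type reads were related with Pearson's r = 0.924 (permutation p = 7e-05, adjusted over 4 relations 0.00028) and Spearman's rho = 0.965 (permutation p = 2e-05, adjusted 8e-05). Without the libraries farthest from the median, corn stover 2 and 3, r was 0.945. Within the diets it was 0.934 in alfalfa hay cows and 0.876 in corn stover cows.

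A mammary library holding RNA of the same cow's liver at the share given by its liver-type reads would hold a computable amount of HP. This amount was 7.79% to 382% of the measured HP level, and it was at least 100% in 7 of the 12 libraries. It was below 50% in 3, namely corn stover 1, 4 and 5, at 7.79%, 19.1% and 46.6%. Liver-type reads were higher on corn stover, so a fit with them as a covariate cannot separate them from diet. With liver-type reads as a covariate, the log2 diet difference of HP was 0.12 ± 0.53 (SE; edgeR adjusted p = 0.984). Without corn stover cows 2, 3 and 4, whose mammary libraries held most liver-type reads (1099 to 2005 ppm), it was 1.22 (edgeR adjusted p = 0.999).

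For the other members the same sum was small. Liver RNA would give at most 1.84% of the SAA3 level, 0.0786% of the M-SAA3.2 level and 4.96% of the C3 level in any mammary library. SAA3 and M-SAA3.2 were still related to liver-type reads over the 12 libraries (r = 0.757 and 0.766, permutation p = 0.00495 and 0.00384, both adjusted 0.0066; rho = 0.769 and 0.762, permutation p = 0.00468 and 0.00562, both adjusted 0.00749). Without corn stover 2 and 3, r was 0.509 and 0.494. Within diets r was 0.789 and 0.446 for SAA3 and 0.565 and 0.558 for M-SAA3.2, on alfalfa hay and corn stover. With the covariate, the log2 diet differences were 0.55 ± 0.65 for SAA3 and 0.64 ± 0.82 for M-SAA3.2 (SE), and without corn stover cows 2, 3 and 4 they were 1.48 and 1.60. Liver-type reads were themselves higher on corn stover, so their part in these differences cannot be told apart from that of diet. For C3 no relation to them passed the threshold (r = 0.345, permutation p = 0.271; rho = 0.413, permutation p = 0.183). Each diet taken alone gave a negative r for C3, at -0.272 for the alfalfa hay cows and -0.330 for the corn stover cows. Without cow 1 of both diets r was 0.558 and rho 0.564 (permutation p = 0.0956 and 0.0962). In that setting the diets taken alone gave r = 0.104 for alfalfa hay cows and -0.147 for corn stover cows. The log2 diet difference of C3 was 1.1 ± 0.41 (SE) with the covariate and 0.88 without corn stover cows 2, 3 and 4.

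**Figure D4:**
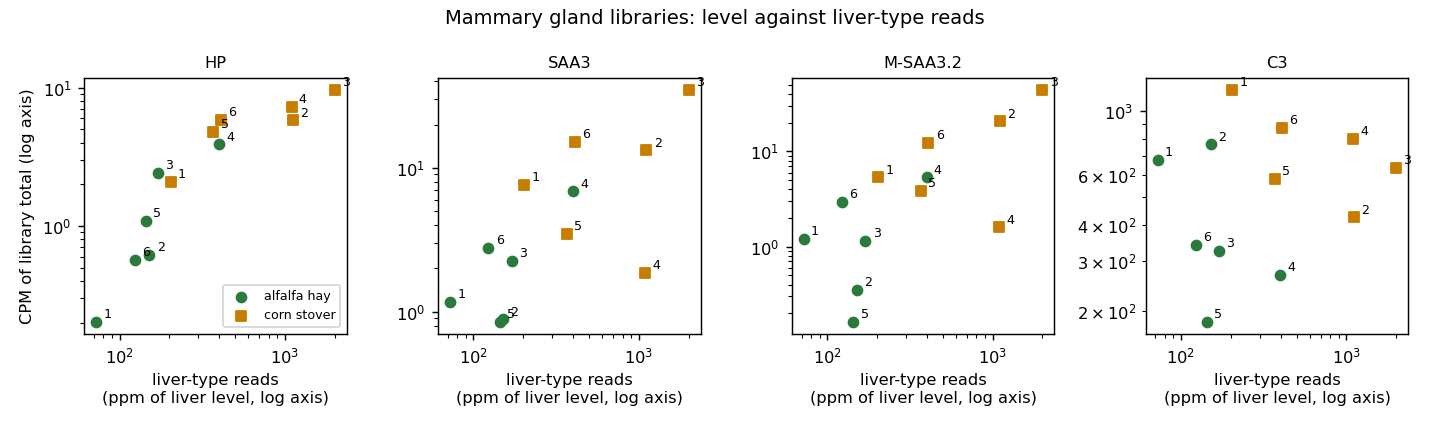
CPM of the library total of each gene against the summed level of 59 liver-type genes (ppm of their liver level) in the 12 mammary gland libraries, both on log axes, with replicate numbers. HP follows the liver-type reads in both diets (r = 0.924 on normalised values), while C3 is more scattered (r = 0.345).

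No cow was highest in both tissues for any of the 4 genes. Some cows were high in both. Corn stover cow 6 was second of 12 for SAA3 in liver (160.3 CPM) and in mammary gland (15.04 CPM). Corn stover cow 2 was likewise second of 12 for M-SAA3.2 in both, at 33 reads in liver and 22.0 CPM in mammary gland. Alfalfa hay cow 4 was first for M-SAA3.2 in liver, at 56 reads, and number 4 in mammary gland. Corn stover cow 3, first for HP, SAA3 and M-SAA3.2 in mammary gland, was number 9 for HP and 6 for SAA3 in liver. Alfalfa hay cow 3 was first for HP and C3 and the third for SAA3 in liver, and stood at number 7 for HP, 9 for SAA3 and 11 for C3 in mammary gland. Alfalfa hay cow 1 was first for SAA3 and number 10 of 12 for HP in liver, and last for HP in mammary gland. Corn stover cow 4 was number 11 for HP in liver and second in mammary gland, where it was first for C3. Corn stover cow 5 was last for both A3 forms in liver and number 6 for both in mammary gland.

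**Figure D5:**
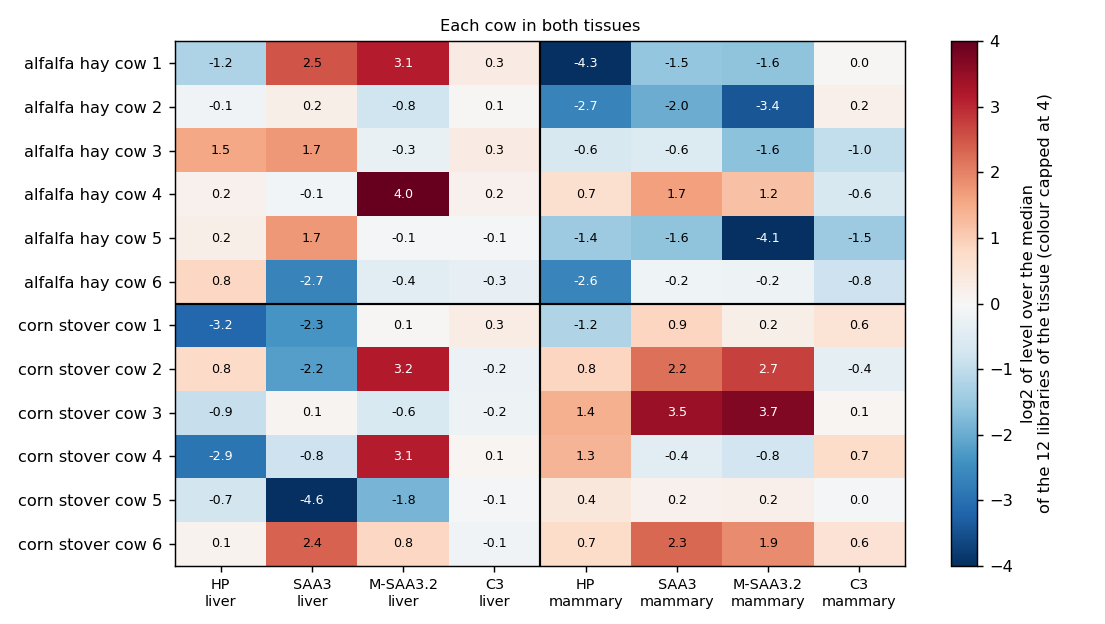
Level of each gene in each cow, as log2 of its ratio to the median of the 12 libraries of the same tissue (red above, blue below; colour capped at 4). The columns of SAA3 and M-SAA3.2 in mammary gland are alike (r = 0.976 on log2 levels). The liver and mammary columns of the same gene gave r from -0.158 to 0.176 over the 12 cows, and from -0.419 to 0.666 within the diets.

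Relations between the genes were computed over the 12 libraries of a tissue, and over the 12 cows for the same gene in both tissues, as part of 24 relations adjusted together. SAA3 and M-SAA3.2 were closely related in mammary gland, with r = 0.976 and rho = 0.979 (permutation p = 1e-05 for each, the smallest the resamples can give; adjusted 0.00024). The relation was 0.962 without corn stover 3 and 6, 0.942 within alfalfa hay and 0.973 within corn stover. M-SAA3.2 was the gene most like SAA3 among 12026 genes in mammary gland, and SAA3 the most like M-SAA3.2, and reads shared between the copies may add to this. In liver the same pair gave r = 0.117 (permutation p = 0.718) and rho = 0.182 (permutation p = 0.572).

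HP and SAA3 in mammary gland gave r = 0.736 (permutation p = 0.00828, adjusted 0.0588) and rho = 0.748 (permutation p = 0.00712, adjusted 0.0448). Within the diets r was 0.790 in alfalfa hay cows and 0.285 in corn stover cows, and without alfalfa hay 1 and 2 it was 0.615. HP and M-SAA3.2 gave r = 0.704 (permutation p = 0.0113, adjusted 0.0588) and rho = 0.706 (permutation p = 0.0125, adjusted 0.05). Within the diets the latter pair gave r = 0.545 and 0.381, and 0.624 without alfalfa hay 1 and 2. Neither pair passed the threshold with scaling by library totals (rho adjusted permutation p = 0.106 for each) or without cow 1 of both diets (0.123 for each). In the latter setting, which left 10 cows, rho was 0.75 for HP and SAA3 and 0.73 for HP and M-SAA3.2. C3 in mammary gland was related to none of the other 3 at the threshold (r = 0.245 to 0.284, rho = 0.252 to 0.308, permutation p from 0.331 to 0.442). Each diet taken alone gave a negative r. With HP, SAA3 and M-SAA3.2 it was -0.464, -0.223 and -0.0206 on alfalfa hay and -0.176, -0.397 and -0.573 on corn stover. Without cow 1 of both diets it turned to 0.341 for HP on corn stover and 0.0209 for M-SAA3.2 on alfalfa hay. In liver HP and SAA3 gave r = 0.220 (permutation p = 0.489) and rho = 0.0769 (permutation p = 0.816), and alfalfa hay cow 3 was the only cow among the 3 highest livers for both. The same gene in liver and mammary gland gave r = -0.113 for HP, -0.158 for SAA3, 0.176 for M-SAA3.2 and 0.118 for C3 (permutation p from 0.580 to 0.722). For these relations rho ran from -0.266 to 0.252 (permutation p from 0.406 to 0.905). Within alfalfa hay r was 0.486, -0.419, 0.666 and 0.322 for HP, SAA3, M-SAA3.2 and C3. Within corn stover it was 0.382, 0.528, -0.114 and 0.656 in the same order. These values rest on 6 cows each and were not tested.

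Milk yield was 23.3 to 29.0 kg per day on alfalfa hay and 17.1 to 23.3 kg per day on corn stover. Over the 12 cows, r with yield was negative for all 4 genes in mammary gland, and none reached the threshold by Pearson's r after adjustment over the 24 relations. For HP r was -0.691 (permutation p = 0.0147, adjusted 0.0588) and rho -0.776 (permutation p = 0.00413, adjusted 0.0448). For SAA3 r was -0.690 (permutation p = 0.0146, adjusted 0.0588) and rho -0.741 (permutation p = 0.00746, adjusted 0.0448). For M-SAA3.2 r was -0.743 (permutation p = 0.00593, adjusted 0.0588) and rho -0.720 (permutation p = 0.0103, adjusted 0.0494). For C3 r was -0.597 (permutation p = 0.0416, adjusted 0.143) and rho -0.517 (permutation p = 0.0893, adjusted 0.306). Without cow 1 of both diets, which left 10 cows, rho was -0.75 for HP, -0.68 for SAA3 and -0.64 for M-SAA3.2. It no longer passed the threshold for any of the 3 genes (adjusted permutation p = 0.123 for HP, 0.160 for SAA3 and 0.217 for M-SAA3.2). With scaling by library totals rho still passed for HP (adjusted permutation p = 0.0376) and not for SAA3 (0.106) and M-SAA3.2 (0.0823). Yield and diet were nearly the same division of the cows. Within alfalfa hay r was -0.125, -0.689, -0.872 and -0.111 for HP, SAA3, M-SAA3.2 and C3, and within corn stover it was -0.580, -0.117, -0.0885 and -0.206. Without alfalfa hay 2 and corn stover 6, which were farthest from the median yield, r was -0.622, -0.553, -0.669 and -0.741 in the same order. In liver r with yield ran from -0.252 to 0.405 (permutation p from 0.191 to 0.426; rho from -0.301 to 0.364, permutation p from 0.246 to 0.383).

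The interaction asked whether the diet difference of a gene differed between the tissues. None of the 4 passed the threshold over 13760 genes (edgeR quasi-likelihood test; 0% of genes called), and 4 of the 4 had an unadjusted p below 0.05, against 5.09% of all genes. The log2 interaction, the diet difference in mammary gland minus that in liver, was 2.84 ± 0.95 for HP (SE; edgeR unadjusted p = 0.00628, adjusted p = 0.652) and 0.91 ± 0.44 for C3 (unadjusted p = 0.0494, adjusted p = 0.976). It was 3.11 ± 1.27 for SAA3 (edgeR unadjusted p = 0.0218, adjusted p = 0.842) and 3.04 ± 1.33 for M-SAA3.2 (unadjusted p = 0.0304, adjusted p = 0.892), whose liver side rests on 1 to 56 reads. DESeq2 called HP (adjusted p = 0.0358) and not C3 (adjusted p = 0.0685), and gave no adjusted p for SAA3 and M-SAA3.2. Genes of low mean count are left out of its adjustment, so these adjusted p-values do not cover all 13760 genes. They are not comparable with those of edgeR. The mean count of HP came mainly from liver (23811 to 790540 reads per library, against 5 to 224 in mammary gland). With a term for each cow the log2 interaction of HP was 3.70 (edgeR adjusted p = 0.949). The mammary side of HP moved with liver-type reads, as given above.

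By log2 level over the 12 libraries of a tissue, other genes were ranked by their likeness to each member, with Pearson's r as a description. The files give no names for them. In liver the genes most like HP were ENSBTAG00000004521 (r = 0.958) and ENSBTAG00000019887 (r = 0.948). Those most like SAA3 were ENSBTAG00000024964 (r = 0.914) and ENSBTAG00000006894 (r = 0.887), and those most like C3 were ENSBTAG00000033731 (r = 0.864) and ENSBTAG00000020764 (r = 0.862). In mammary gland the genes most like HP were ENSBTAG00000022120 (r = 0.967) and ENSBTAG00000001638 (r = 0.965), both of them liver-type genes. Of the 16 genes at r of 0.9 or more with HP there, 10 were among the 38 liver-type genes that passed the filter, of 12026 genes ranked.

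Of the 21 genes at r of 0.8 or more with SAA3 in mammary gland, the 15 with M-SAA3.2 and the 24 with C3, 0 were liver-type genes. Liver-type genes were 38 of the 12026 genes ranked. At that share, lists this short could well hold 0 of them, so these counts say little. Beside each other, SAA3 was most like ENSBTAG00000010390 (r = 0.899) and ENSBTAG00000008555 (r = 0.891), and M-SAA3.2 was most like ENSBTAG00000027225 (r = 0.879) and ENSBTAG00000010390 (r = 0.871). C3 was most like ENSBTAG00000016805 (r = 0.897) and ENSBTAG00000023411 (r = 0.892). All these libraries share their scaling and their cows.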

How the data were processed

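Raw read counts per gene, 1 file per library, were deposited by the authors with the same 24616 Ensembl identifiers in each. The authors worked with build UMD3.1 and with HTSeq 0.6.1, SAMtools 1.1 and TopHat2 2.0.9, per the submitters' processing notes. For tool order, annotation release, strand setting and reads shared by near-identical copies, nothing is stated: not given in the sources used here. The members and lists were chosen with earlier results of these data known. The files hold identifiers only, and 0 of them matched the gene table used here (ARS-UCD2.0). The 4 gene names come with the choice of members, and the planned lists of further acute phase and complement genes and of cell type markers could not be applied.

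Diet was tested within each tissue (corn stover minus alfalfa hay, 6 against 6 libraries) with edgeR's quasi-likelihood test (edgeR 4.0.16, R 4.3.3), and tissue and interaction over all 24 libraries. Low genes were removed with filterByExpr at a minimum count of 10 and a minimum total of 15, and libraries were scaled by TMM. In edgeR the Benjamini-Hochberg adjustment covered every tested gene, while DESeq2 leaves genes of low mean count out of it. The threshold was 0.05. The SE was taken as the size of the log2 difference divided by the square root of F. Relations used log2(normalised CPM + 0.5) and 100000 resamples, two-sided. Liver-type and mammary-type genes were those whose median reached 1000 CPM in 1 tissue and was 1000 times the median of the other, without the 4 members. Their summed CPM of the library total is given in ppm of the sum of their medians in the source tissue.

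Liver and mammary libraries of the same diet and number carry identical yield, intake, parity and days in milk in the labels and were taken as 1 cow. Their deviations from the group means correlated at -0.17 to 0.35. Numbers shared by the diets name different cows. P-values measure the spread between these cows, except in the tissue and interaction fits. Apart from the fits with a term for each cow, those treated the 2 libraries of a cow as independent. Named genes were the 4 members in each comparison and, for each member tested in a tissue, the 2 other genes of highest r. Alternatives were other scalings (RLE, library totals, totals without the 10 most abundant genes), no filter, DESeq2 1.42.0, covariates, blocks and leaving out each cow. Chosen after seeing the data were the fit without replicate 1 livers, the fit without corn stover cows 2, 3 and 4, the fit with liver-type reads and the pair share. The tools were tested on simulated data.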

Additional observations from a re-analysis of the deposited data

Results flagged for a closer look

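In 24 groups of 6 libraries, 5 had a library whose gap to the next exceeded Dixon's 95% critical value for 6 samples. Chance would give about 1.2 if the values were normally distributed. That was not tested for these untransformed values, and groups share libraries, so 1.2 is only a rough guide.

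Alfalfa hay cow 4 accounted for 4 of them. In its mammary gland SAA3 was at 9.59 CPM, against 0.775 to 2.69 CPM in the other 5 alfalfa hay cows, and M-SAA3.2 was at 7.46 CPM, against 0.189 to 2.85 CPM. Liver-type reads in the same library stood at 399.8 ppm of their liver level, against 72.3 to 170.4 ppm. In its liver M-SAA3.2 took 6.33% of the reads of the A3 pair, against 0.0962% to 1.88%. In the liver of corn stover cow 6, SAA3 was at 160.3 CPM, against 1.32 to 33.6 CPM in the other 5 corn stover cows.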

How the results depend on the processing

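None of the 4 genes was called for diet in either tissue, and all 4 were called between tissues, under every alternative run except those named here. With the replicate block, HP in mammary gland was called at 2.33 (edgeR adjusted p = 0.0329), which made the members called 1 there. The numbers name different cows, and same-numbered libraries deviated together at -0.26 to 0.29 in mammary gland and 0.06 to 0.60 in liver, with 3 and 4 of 6 correlating best with their own number. DESeq2, whose adjustment covered fewer genes than that of edgeR, called the interaction of HP at 2.83, so 1 member was called. The cow as a block changed no call of a member. Over all genes, 0 were called for diet in liver, diet in mammary gland and the interaction, where DESeq2 called 3, 42 and 74. The replicate block called 12 and the liver-type covariate 15 in mammary gland, the fit of all 24 libraries 3 in liver, and the interaction without alfalfa hay cow 4 gave 2. With the header kind as a term, SAA3 and C3 in liver reversed to 2.95 and 0.28. CPM without the 10 most abundant genes moved mean levels on alfalfa hay and corn stover to 6.61 and 23.6 for HP, 11.1 and 49.8 for SAA3, 8.34 and 58.3 for M-SAA3.2 and 1647 and 2781 for C3 in mammary gland, and to 23928 and 22258 for C3 in liver, since the total is smaller by construction. The r of HP and C3 in liver turned to 0.22 with library totals and 0.0031 without replicate 1. That of SAA3 and M-SAA3.2 in liver turned to -0.081 without replicate 1, and that of C3 in both tissues to -0.22 and -0.10. The cause was not tested.

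Leaving out each cow gave log2 diet differences in liver of -1.48 to -0.64 for HP, -2.54 to -0.56 for SAA3 and -0.20 to -0.08 for C3. In mammary gland they were 1.60 to 2.67, 1.49 to 3.02, 2.01 to 3.70 and 0.67 to 0.99 for HP, SAA3, M-SAA3.2 and C3. Low read numbers limit M-SAA3.2 in liver and HP in mammary gland. The division of reads between the A3 forms depends on counting that cannot be traced here.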
